A study of Homo sapiens with 2 samples.

Results

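Of the 39801 peaks called between 1 m6A-RIP library and 1 input library of HCCLM3 cells, 943 lay in the last intron of a protein-coding transcript. They were chosen by the region label that the authors' annotation gives each peak: a RefSeq coding transcript, an intron number n, the number of introns N, with n equal to N and N above 1. No measured value entered this choice. HCCLM3 is an established human hepatocellular carcinoma line with a high metastatic capacity, and the cells were wild type with no treatment named in the labels. The study concerns the coactivator CRTC2 and the m6A reader YTHDF2 in resistance to the kinase inhibitor lenvatinib. RNA bound by an m6A antibody (RIP) was sequenced beside total RNA (input). Each kind has 1 library, so no comparison here has a replicate, and intervals cover counting error only.

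N6-methyladenosine (m6A) is a methyl mark that the METTL3 and METTL14 complex sets on RNA while it is transcribed. In mature messenger RNA it is densest around stop codons, in 3′ UTRs and in long internal exons. Introns are removed soon after synthesis, so a peak inside one reports RNA that still holds the intron, an exon missing from the annotation or another transcript over the same bases. The last intron is the final one to be completed by the polymerase, lies next to the terminal exon that usually carries the stop codon, and its removal is coupled to cleavage and polyadenylation. The annotation gives 3′ UTR and exon labels precedence over introns, so a last intron peak touches no annotated exon, and the 3 kb around a transcript start go to the promoter label instead.

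The 943 peaks fell in 580 labelled introns of 565 genes. Of all 20056 protein-coding genes in the RefSeq table, 561 (2.8%) held at least 1 last intron peak, and 234 (1.17%) held 1 with the authors' q under 0.05. There were 394 genes with a single peak, 80 with 2 and 91 with 3 or more, and those 91 carried 389 of the 943 peaks. Peaks of a gene share its RNA and are not replicates of one another. The label was checked against RefSeq gene models. Of the 943, 942 matched a gene, 937 a protein-coding one, 935 had the summit inside that gene's body, and 904 could be placed by strand. Their median position was 83.2% of the way from the gene's 5′ to its 3′ end (quartiles 66.6% and 92.4%), against 22.1% for first and 54.8% for middle intron peaks. The position was alike for genes on the plus strand (82.3%) and the minus strand (84.7%), so the intron numbers follow transcription. The labels named transcripts with a median of 7 introns (quartiles 4 and 13), fewer than the 14 of middle intron peaks.

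**Figure D1:**
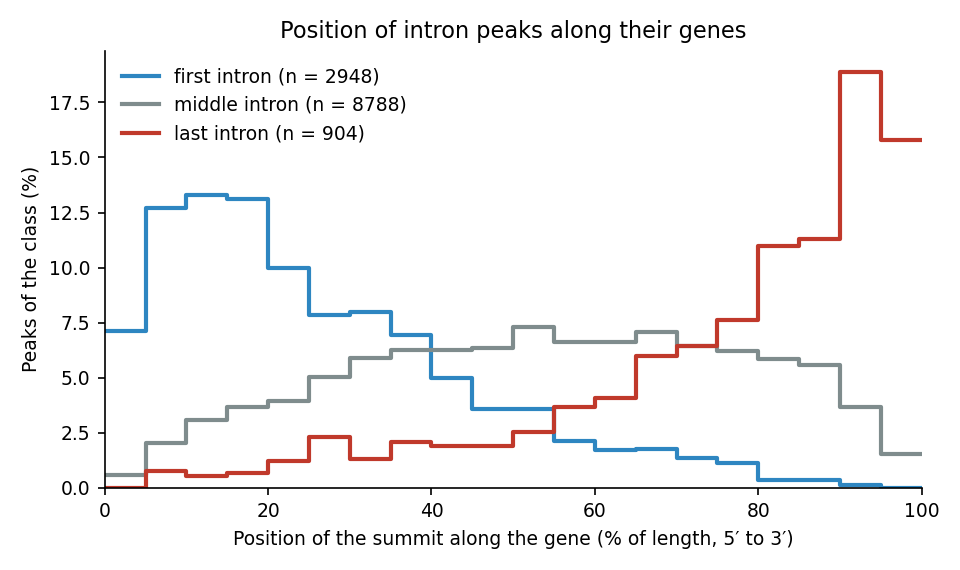
Position of peak summits along the gene that the intron label names, as the percent of each class of intron peak (vertical axis) in bins of 5% of gene length (horizontal axis). First intron peaks crowd at the 5′ side, middle ones spread across the gene, and last intron peaks rise towards the 3′ end, with 18.9% of 904 between 90% and 95%.

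A minority sat away from the 3′ end. Of the 904 placed peaks, 115 (12.7%) lay in the first 50% of the gene, as a long last intron or a labelled transcript shorter than the gene can place them. ZSCAN25, which encodes a zinc-finger protein with a SCAN domain, is such a case: its 5 peaks in intron 7 of 7 lay between 17.4% and 34.5% of the gene. LAMA3, a laminin chain of basement membranes, had 7 peaks in intron 8 of 8 between 28.8% and 31%, while 2 other intron peaks of the gene carry the label of a transcript with 73 introns. For LAMA3, last therefore refers to a short transcript of the gene. The ends of the labelled transcripts were not used here.

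MicroRNA genes also show what the deposited gene column means for these peaks. That column names the gene of the nearest transcript start, which for 65 last intron peaks was 1 of 35 microRNA genes, yet no summit lay inside the microRNA named, and the median distance to its start was 44782 bp (lowest 4177, highest 305176). The chloride channel gene CLCN5 held the largest cluster. Its intron 3 of 3 on chromosome X carries 8 microRNA hairpins and 6 peaks, 5 of which are assigned to MIR532 or MIR502, although the nearest mature sequence lay 8307 bp from a peak. A microRNA pairs with its targets through the seed, bases 2 to 8, shown in capitals. The mature sequences are those of RefSeq on GRCh38.p14. The sequences at the edges of the cluster, then those that share a seed, are shown to make clear which RNAs the column names.
hsa-miR-532-5p (chrX:50003167-50003188, plus strand): cAUGCCUUgaguguaggaccgu
hsa-miR-362-5p (chrX:50008968-50008991, plus strand): aAUCCUUGgaaccuaggugugagu
hsa-miR-500b-5p (chrX:50010682-50010699, plus strand): aAUCCUUGcuaccugggu
hsa-miR-501-3p (chrX:50009772-50009793, plus strand): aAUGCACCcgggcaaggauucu
hsa-miR-502-3p (chrX:50014649-50014670, plus strand): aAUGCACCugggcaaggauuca
Here miR-362-5p and miR-500b-5p share one seed and miR-501-3p and miR-502-3p share another. The 6 CLCN5 peaks had folds from 2.35 to 3.89 on 3 to 6 RIP fragments, and none had q under 0.05. They were shallow and lay at a distance from the hairpins. Whether the RNA under them also held the microRNA sequences was not tested. PCED1B, in intron 2 of 2 on chromosome 12, had 3 of its 5 peaks assigned to a single microRNA gene, MIR4698. Its strongest peak had a fold of 8.84 (5.95 to 12.7) on 26 fragments, and its other 4 had folds from 2.69 to 3.25.
hsa-miR-4698 (chr12:47187860-47187882, plus strand): uCAAAAUGuagaggaagacccca
That sequence lay 9814 bp from the nearest peak, so these peaks again do not lie over the microRNA gene named. It lies in the same intron, and whether a single RNA held both was not tested.

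Last intron peaks were mostly shallow. Fold is the authors' enrichment of RIP over input at the summit, with a pseudocount of 1. The number of RIP fragments behind each fold was recovered from the authors' fold and p-value. Input level is the expected background solved from the same values, and not a count of input fragments. The median fold was 3.05 (95% interval 2.86 to 3.17, quartiles 2.35 and 4.18), from 1.52 to 17.2, and the median depth was 6 RIP fragments (quartiles 3 and 12.5). A total of 281 peaks (29.8%) rested on at most 3 fragments, and 159 had the same fold of 2.35. Of the 943, 315 (33.4%, Wilson interval 30.5% to 36.5%) had q under 0.05, against 48.8% of all peaks of the series, and 114 (12.1%, 10.2% to 14.3%) had q under 1e-5, against 25.8%. At the other end, 341 (36.2%) had a q of 1. The 114 peaks of q under 1e-5 lay in 90 genes, had a median fold of 6.67 on 28.5 fragments, and held 39.7% of the 10158 RIP fragments counted at the 943 summits. Depth and q are not the same, since 301 of the 943 peaks had at least 10 fragments.

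**Figure D2:**
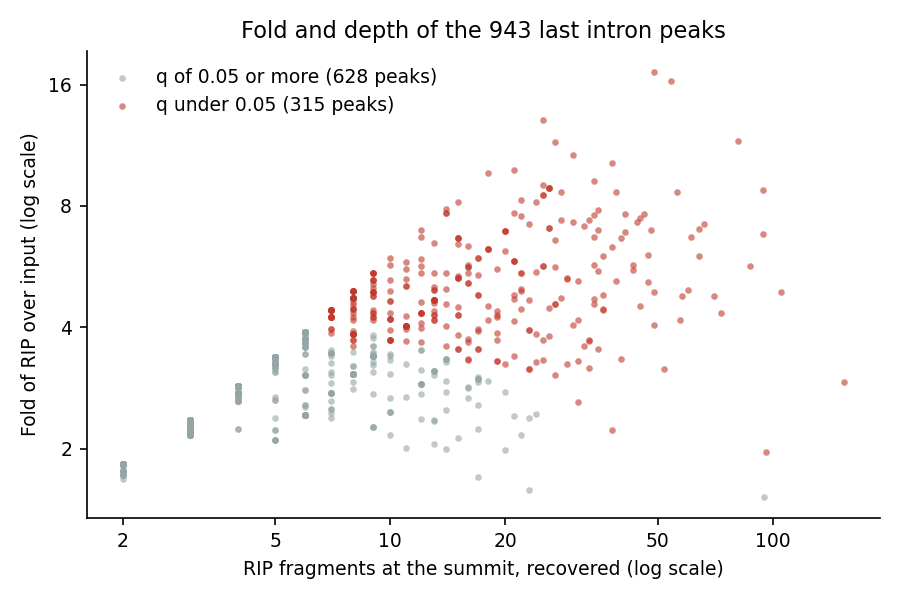
Fold of RIP over input (vertical, log scale) against the recovered number of RIP fragments at the summit (horizontal, log scale), 1 point per last intron peak. The 628 peaks with q of 0.05 or more (grey) lie at low depth or low fold, and the 315 with q under 0.05 (red) reach a fold of 17.2 and 153 fragments.

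With every peak counted, last introns differed little in strength from other introns. Median fold was 2.9 (2.86 to 3.06) for 2990 first intron peaks and 2.86 (2.86 to 2.96) for 8955 middle intron peaks, and both intervals overlap that of the last. The ratio of medians was 1.05 to first and 1.06 to middle intron peaks, and with only the strongest peak of each gene the ratio to middle intron peaks was 0.915, so the direction is not settled. The share with q under 0.05 was 33.0% and 32.7%, and the median depth was 6 fragments in each class. With 1 peak per gene the classes differed more: 41.6% of last, 44.5% of first and 51% of middle intron peaks had q under 0.05. Their medians were 7, 7 and 9 fragments. The peak kept was that of highest −log10 p, out of 943 peaks in 565 genes for last introns. For first introns it was out of 2990 in 1507 genes, and for middle introns out of 8955 in 3188. The pick was thus from more peaks per gene in middle introns. Its part in these differences, and in the ratio of 0.915, was not tested. Peaks at least 1000 bp wide made up 3.71% of last intron peaks (35 peaks, 2.68% to 5.12%), 1.51% of first (1.13% to 2.01%) and 2.62% of middle ones (2.31% to 2.98%). The last share stood above the first beyond counting error and overlapped the middle one. The wide last intron peaks were deeper, with a median of 20 fragments and a median fold of 5.44.

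Closeness to the gene's end follows from the rule and is given as a description. Of the 904 placed peaks, 143 (15.8%, 13.6% to 18.3%) lay within 5 kb of the gene's 3′ end, against 0.0678% of first and 1.27% of middle intron peaks. Within the set, peaks with lower q were more often close to the end in bp. Among peaks with q under 0.05, 75 of 302 (24.8%, 20.3% to 30%) were within 5 kb of the gene's end. Among the others it was 68 of 602 (11.3%, 9.01% to 14.1%), so these intervals do not overlap. They treat peaks of 1 gene as independent, and this split was not run with 1 peak per gene. Relative position did not follow, with a median of 82.7% for peaks with q under 0.05 and 83.7% for the others. An exon or 3′ UTR peak of the same gene lay within 5 kb of 82 of 313 peaks with q under 0.05 (26.2%, 21.6% to 31.3%) and of 71 of 622 others (11.4%, 9.15% to 14.2%). In middle introns the same pair was 6.9% and 4.74%, and in first introns 2.33% (1.56% to 3.48%) and 0.903% (0.572% to 1.42%), so a split of this kind was not particular to last introns. Input level moved with this split, at a median of 1 for peaks with q under 0.05 and 0.281 for the others, and its part was not tested. No peak has a strand, so the RNA under it is known only to overlap the intron.

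**Figure D3:**
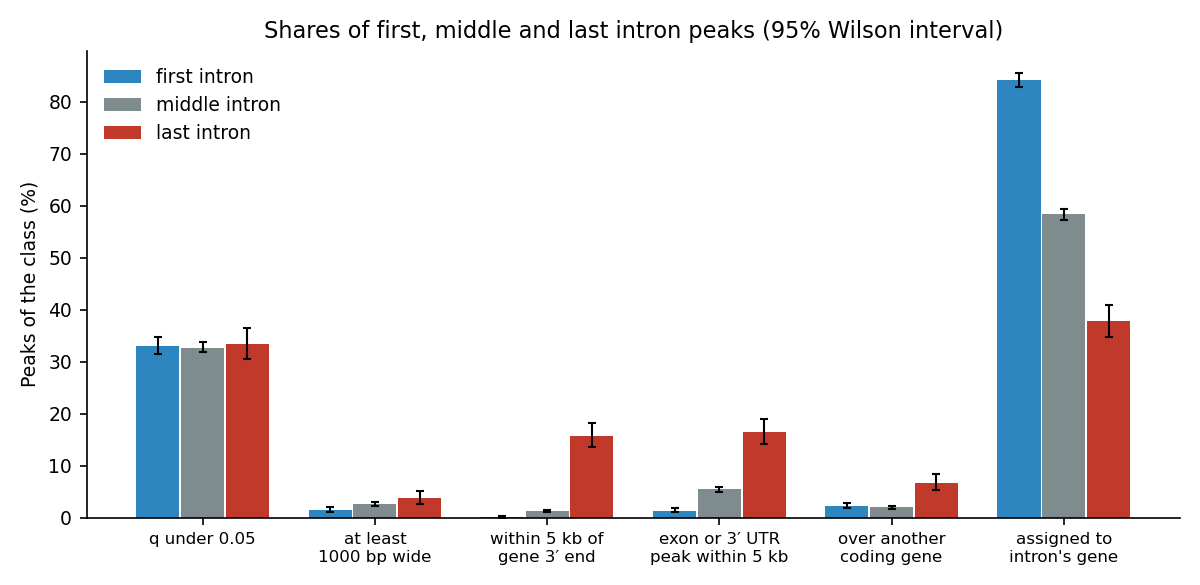
Percent of first, middle and last intron peaks (bars) with each of 6 properties, with 95% Wilson intervals. The share with q under 0.05 is near 33% in each class, while last intron peaks are higher for closeness to the gene's 3′ end and to an exonic peak and for overlap with another coding gene, and lower (37.8%) for assignment to the intron's own gene.

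Exonic peaks elsewhere in the gene were common, though less so than for other introns when every peak was counted. The gene held an exon or 3′ UTR peak for 598 of 935 peaks (64.0%, 60.8% to 67.0%), against 69.3% (67.6% to 70.9%) for first and 68.4% (67.4% to 69.4%) for middle introns. With 1 peak per gene the shares were 64.9%, 68.0% and 65.1%, so the gap to middle introns closed. The gene held a 3′ UTR peak for 45.1%, against 54.9% and 47.4%. Here an exonic peak has an exon or 3′ UTR label, and it counts when its summit lies in the gene's body or its label names the gene. Peaks with a 5′ UTR or promoter label were not counted. Fold was alike whether the gene held such a peak (median 3.07, 598 peaks) or not (2.9, 337 peaks). Of the 114 peaks with q under 1e-5, 40 lay in 27 genes with no exon or 3′ UTR peak.

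The 10 last intron peaks of highest fold and the 10 of lowest p made 17 peaks in 16 genes, with 3 in both sets. The highest fold belonged to CEACAM19, a member of the carcinoembryonic antigen adhesion family: 17.2 (12.8 to 22.5) on 49 RIP fragments, over an input level of 0.888, in intron 7 of 7 at chr19:44682927-44683422 (hg38). That summit was 1170 bp from the gene's 3′ end and 1027 bp from the nearest exonic peak. ANKDD1A, which encodes an ankyrin-repeat protein with a death domain, followed at 16.3 (12.4 to 21.2) on 54 fragments at chr15:64951527-64953379, and its peak is assigned to SPG21 in the deposited table. PCDH7, a protocadherin of cell adhesion, had a fold of 13.1 (8.78 to 19) on 25 fragments in intron 2 of 2, 90184 bp from the gene's end, and is assigned to a long non-coding RNA gene, LINC02497. The intervals of these 3 overlap, so their order is not settled.

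The peak of lowest p was that of ZSCAN25, with a fold of 11.6 (9.29 to 14.4), 81 fragments and a −log10 p of 40.8, at chr7:99655641-99658315. Its summit lies inside CYP3A5 as well, which is transcribed from the other strand and encodes a cytochrome P450 that metabolises drugs. The next peak along, at chr7:99658473-99659281, had 87 fragments and a fold of 5.68 (4.57 to 6.98). Of the 5 peaks in this intron, 4 lie over CYP3A5 and are assigned to it, and all 5 had q under 0.05. Which of these overlapping genes gave the RNA cannot be told apart from peaks without strand.

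MEIS3, a homeobox transcription factor gene, had a fold of 8.76 (7.1 to 10.7) on 94 fragments in intron 12 of 12, 2913 bp from the gene's end. GDPD4, which encodes a glycerophosphodiester phosphodiesterase-like protein, had the widest peak of the set, 4177 bp, with a fold of 6.81 (5.53 to 8.31) on 94 fragments. PSAT1, the aminotransferase of serine synthesis, reached 8.68 (6.61 to 11.2) on 56 fragments in intron 7 of 7. CAPN9, a calpain protease gene, reached 7.22 (5.62 to 9.14) on 66 fragments, 1770 bp from its end. None of these 4 genes held an exon or 3′ UTR peak. TRIM4, a gene of the RING-finger ubiquitin ligase family, had the deepest of the 17, with 105 fragments over an input level of 13 and a fold of 4.88 (4.01 to 5.9). TMEM204 gave 7.01 (5.44 to 8.91) on 64 fragments at chr16:1553017-1553364, a summit that also lies in IFT140, a ciliary transport gene on the other strand.

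The remaining peaks of highest fold had lower depth. TPD52L1, of the tumour protein D52 family, was at 11.5 (7.8 to 16.5) on 27 fragments. EFCAB13, named for an EF-hand calcium-binding domain, was at 10.7 (7.41 to 15.1) on 30. PIGN, an enzyme of glycosylphosphatidylinositol anchor synthesis, was at 10.2 (7.36 to 13.9) on 38 fragments in intron 29 of 29. LRFN3, a synaptic adhesion gene, was at 9.82 on 21, ADAMTS6, a secreted metalloprotease, at 9.68 on 18, and SLC66A1, a lysosomal exporter of basic amino acids, at 9.2 on 34. All of these intervals overlap. Of the 10 of highest fold, 4 are assigned in the deposited table to the gene of the intron, and of the 10 of lowest p, 7. The deepest last intron peak of all was outside both sets and is named after its value was seen: MDFIC, a gene for a transcriptional regulator, with 153 fragments over an input level of 33 and a fold of 2.92 (2.48 to 3.41). Its input level was far above the median of 0.326 for the set.

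**Figure D4:**
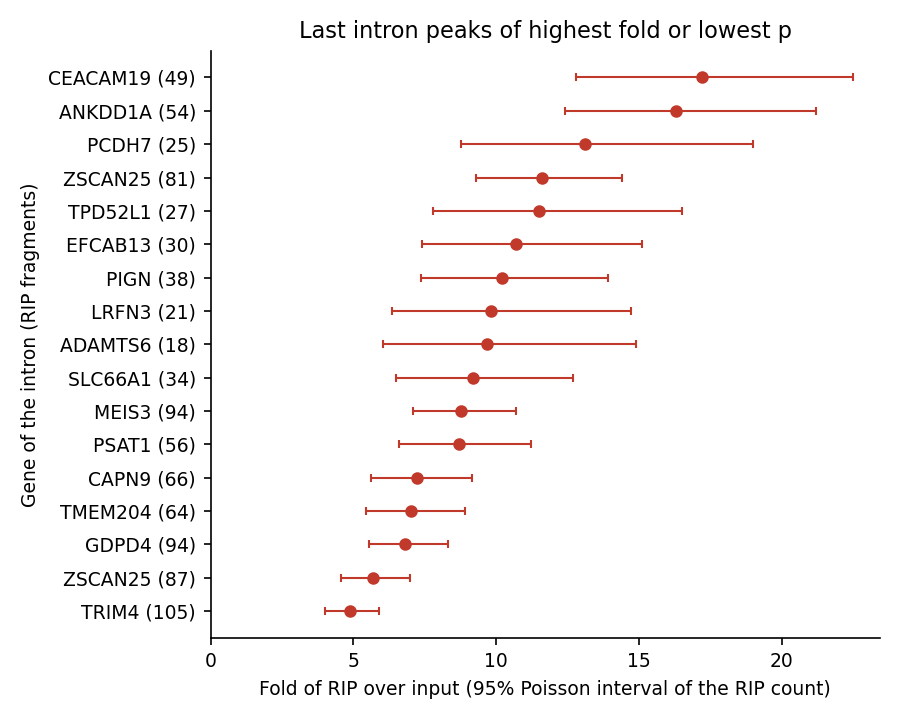
Fold of RIP over input (horizontal) of the 17 last intron peaks of highest fold or lowest p, by gene of the intron with the RIP fragments in brackets, and bars for the 95% Poisson interval of the RIP count with input held fixed. CEACAM19 and ANKDD1A lead with 17.2 and 16.3, and many neighbours in the order overlap.

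Several peaks often stood in 1 intron. Of the 580 labelled introns, 171 held 2 or more, and neighbouring summits were a median of 3588 bp apart (quartiles 1390 and 12123). DIAPH2, a formin that nucleates actin filaments, and ERICH1 had 11 each. All 11 of DIAPH2 are labelled intron 26 of 26, but under 2 different transcripts. The DIAPH2 peaks spanned 157918 bp, with folds from 1.76 to 8.2, and 2 of 11 had q under 0.05. The strongest lay 9385 bp from the gene's end, with a fold of 8.2 (5.43 to 12) on 24 fragments. In ERICH1 folds ran from 2.31 to 5.84, and 4 of 11 had q under 0.05.

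NBDY differed from those. It encodes a short polypeptide that binds the mRNA decapping machinery and is found in P-bodies. Of its 10 peaks in intron 2 of 2, 8 had q under 0.05, with 251 RIP fragments in all. From the 5′ side, the folds were 3.28, 4.94, 7.47, 7.38, 5.2, 7.21, 5.67, 3.25, 6.98 and 2.35. The 10 summits spanned 43678 bp, and the 8 with q under 0.05 lie between chrX:56748830-56749148 and chrX:56782726-56783164. The gene had neither an exon nor a 3′ UTR peak, and no peak in another intron. LRMDA, linked to melanocyte differentiation, also had 10 peaks, with 3 of q under 0.05, folds from 2.1 to 6.67 and 15 peaks in its other introns. PMM2, the phosphomannomutase of protein glycosylation, had 8 peaks in intron 7 of 7, 4 of them with q under 0.05, and none in its other introns. The PMM2 folds from the 5′ side were 7.29, 3.1, 3.7, 2.77, 3.17, 6.96, 2.84 and 2.57. Its first peak is assigned to PMM2 and its other 7 to LOC100130283.

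**Figure D5:**
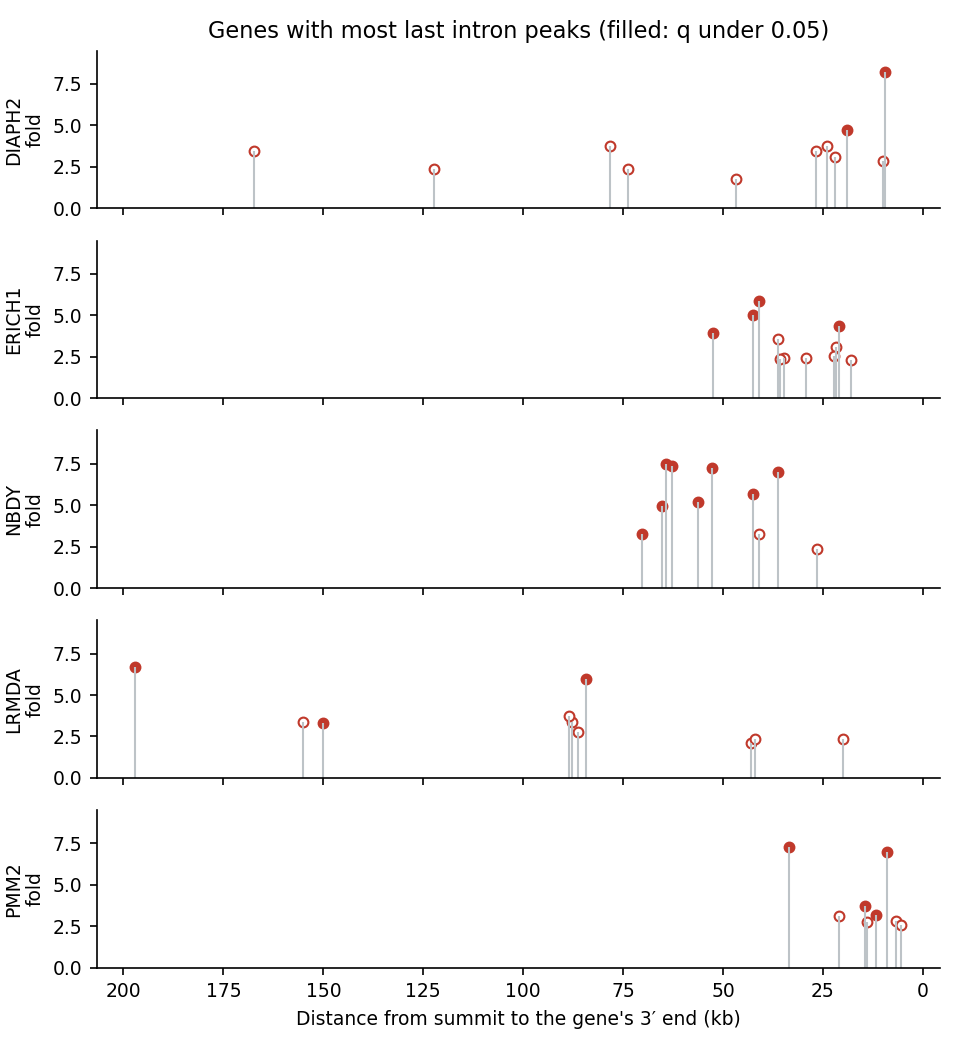
Fold of RIP over input (vertical) of every last intron peak of the 5 genes that hold most, by distance of the summit from the gene's 3′ end in kb (horizontal, end at the right). Filled points have q under 0.05; NBDY has 8 filled of 10, DIAPH2 2 of 11.

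Last intron peaks lay over a second coding gene more often than other intron peaks. This held for 63 of 942 (6.69%, 5.26% to 8.47%), against 68 of 2980 first (2.28%, 1.8% to 2.88%) and 182 of 8929 middle intron peaks (2.04%, 1.77% to 2.35%), and the intervals do not overlap. With 1 peak per gene the shares were 7.09%, 2.73% and 3.09%. Of the 63, in 42 genes, the other gene was on the opposite strand for 36, on the same strand for 10 and of unknown strand for 17. The gene in the deposited table was the gene of the intron for 27, the overlapping gene for 22 and a different one for 14. Examples with q under 0.05 show the kinds of overlap. CREB1 lay over METTL21A and DHX8, a splicing helicase, over ETV4, both in opposite orientation, and the single peak of MSANTD3 lay over a readthrough transcript, MSANTD3-TMEFF1. The last intron of the nebulin gene NEB, 182 of 182, had a peak at 3.85 (2.02 to 6.98) on 8 fragments over RIF1. Another 89 peaks (9.45%) lay over a non-coding gene or pseudogene only. These had a median fold of 2.86 and 24.7% with q under 0.05 (16.9% to 34.6%), against 44.4% (32.8% to 56.7%) for those over a coding gene and 33.5% (30.3% to 36.9%) for the 790 over no other gene.

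The gene column of the deposited table named another gene for most of these peaks. The deposited gene was the gene of the intron for 37.8% of last intron peaks (34.7% to 40.9%), against 84.2% of first and 58.3% of middle ones. It was a protein-coding gene for 668, a long non-coding RNA for 166, a microRNA for 65 and a small nucleolar RNA for 10. Of the 314 peaks in the last 90% to 100% of the gene, 19.1% were assigned to it, and of the 29 in the first 25%, 93.1%. Assignment to the gene of the intron was thus rarer near its 3′ end. Because the column goes by the nearest transcript start, a lower share far from the gene's own start follows from its definition. These shares are given as a description.

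Genes of the m6A pathway and others were counted by list, with the share of all coding genes, 2.8%, as background. None of 11 writer genes held a last intron peak. Of 16 eraser and reader genes, 3 did (18.8%), and 8 held an intron peak of any rank, against 4185 of the 20056 coding genes. FTO, a demethylase, had 3 peaks in intron 8 of 8: the strongest reached 6.67 (4.83 to 8.99) on 40 fragments, the other pair 2.75 each. YTHDF2, the reader that directs methylated RNA to decay, had 1 peak in intron 5 of 5 at chr1:28755486-28755871, where 12 fragments gave a fold of 4.35 (2.49 to 7.22) and a −log10 q of 2.25. Its paralogue YTHDF3 had 1 at 3.11 (1.81 to 5.09) on 13, with q above 0.05. CRTC2 held none. Of 19 genes of CREB factors and their coactivators, 2 held a last intron peak (10.5%), and 12 held an intron peak of any rank. The differences of these lists from 2.8% were not tested. CREB1, the cyclic AMP response factor, had 2 in intron 8 of 8, at 7.7 (4.56 to 12.4) on 14 fragments and 4.66 (2.56 to 8.04) on 10. ATF1, of the same family, had 1 at 4.19 (2.3 to 7.23).

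The listed factors that process RNA ends and introns held such peaks at shares near the background. Of 24 cleavage and polyadenylation genes, 1 did (4.17%): SCAF4, whose protein restrains early polyadenylation, had a peak at 4.43 (2.32 to 8.02) on 8 fragments. Of 38 splicing genes listed, 1 did (2.63%): MBNL2, a splicing regulator, had 2 peaks, the best at 2.86 on 4 fragments. That list does not hold every splicing gene: DHX8, outside it, had 1 peak at 5.63 on 16 fragments, with q under 0.05. No gene of the 30 ribosomal proteins listed as examples held one. RPS29, a ribosomal protein gene outside that list, had 1 at 3.71 on 8 fragments, with q under 0.05.

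Signalling genes of the lenvatinib setting were counted next. None of 10 receptor kinases that the drug inhibits held a last intron peak, nor did MYC. Of 44 genes of EGFR, MAPK and PI3K signalling, 2 did (4.55%). Counts this small cannot be set apart from 2.8%. EGFR, the growth factor receptor, had 1 in intron 21 of 21 at chr7:55204250-55204810, with 24 fragments over an input level of 5.74, a fold of 2.43 (1.61 to 3.55) and q above 0.05. The deposited gene of that peak is EGFR-AS1. PIK3CA, the catalytic kinase subunit of PI3K, had 1 in intron 20 of 20 at 6.43 (3.87 to 10.2) on 15 fragments. It was also the only 1 of 35 liver cancer driver genes with such a peak.

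Among growth and polarity pathways, TGFB1, the ligand, stood out for depth: 70 fragments, a fold of 4.79 (3.76 to 6.02), in intron 6 of 6, 1507 bp from the gene's end. Its pathway had 2 of 27 genes, the other being the inhibitor SMAD6 at 2.73. Of 38 Wnt genes 3 held a peak: TNKS, a tankyrase, at 8.52 (5.69 to 12.3), the receptor LRP5 at 3.33 (2.42 to 4.49) on 40 fragments, and the kinase CSNK1A1 at 1.58 (1.04 to 2.31). Of 29 Hippo genes only STK3, the kinase MST2, did, with 6 peaks up to 3.54.

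Genes of membrane traffic and adhesion held several members, with no test of the difference from 2.8%. These lists are also rich in intron peaks of any rank, with 32 of 44 traffic genes and 44 of 58 adhesion genes against 4185 of 20056 coding genes. In 44 traffic genes, 6 (13.6%) held 14 peaks, led by the Rab regulators TBC1D22A at 6.6 (4.47 to 9.44) and TBC1D14 at 4.35 (3.43 to 5.44) on 73 fragments. The exocyst subunit EXOC4 followed at 3.97, and VPS13B, a lipid transport gene, at 3.74 on 6 fragments with q above 0.05. That VPS13B peak, in intron 17 of 17 of the labelled transcript, lay at 22.1% of the gene, 673166 bp from its 3′ end. In 58 adhesion and cytoskeleton genes, 4 (6.9%) held 21, of which DIAPH2 had 11 and LAMA3 7. The best of LAMA3 had a fold of 7.39 (5.19 to 10.2) on 33 fragments, and MAGI2 and ANK3, both scaffold genes, reached 3.38 and 2.75. Of 68 chromatin genes listed, TET2 and HDAC9 held 1 each, at 3.38 and 2.75, and neither had q under 0.05. That list does not hold every chromatin gene: BPTF, outside it, had 1 at 4.67 on 13 fragments, with q under 0.05. Of 477 genes with ZNF symbols, a list added after the data were seen, 29 (6.08%) held 40 peaks. ZNF420 at 8.2, ZNF189 at 7.05, ZNF124 at 6.89 and ZNF146 at 5.68 led. Gene length and RNA level were not tested for any list.

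None of 35 hepatocyte, 18 immune, 20 endothelial and stromal or 14 oncofetal marker genes held a last intron peak. Peaks give no expression level, so the labelled cell type could not be checked from them.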

How the data were processed

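RNA of HCCLM3 cells was captured with an m6A antibody (Magna RIP kit) and sequenced, with its input, from SMARTer Stranded Total RNA-Seq Pico libraries, per the labels' protocols. HISAT2, MACS2 and hg38 are named in the submitters' processing notes; their versions, settings and roles are not stated in these sources. The deposited values are a fold ratio per peak, −log10 p and −log10 q values, and a score that equals 10 times −log10 p rounded down for 99.99% of peaks. The fold and p are the authors' own values, used here only within their list. The list holds peaks with −log10 p from 1.30138 and carries no library totals, so depth was recovered as whole RIP fragments n from fold = (0.6415 n + 1)/(input level + 1) and the Poisson p. All 39801 peaks were met within 0.001 of −log10 p, 98.2% by a single n. The step was also run on peaks simulated with the same formula and scaling. That run tests the solving of the formula and not whether the formula holds. Without the scaling, 1% of 400 sampled peaks were met.

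Labels were joined by gene ID to RefSeq genes on GRCh38.p14, whose chromosomes are those of hg38, with strand from the RefSeq promoter table or else the deposited gene strand (99.7% equal where both exist). Summit is start plus offset. The classes compared are first, middle and last introns of coding transcripts, and 13 labels whose intron number exceeds the total and 101 single introns were left out. Genes named are the 10 peaks of highest fold, the 10 of highest −log10 p, the 5 genes with most peaks, up to 4 per list, and CRTC2, YTHDF2, EGFR and MYC. With 1 library each, no test was run: shares carry 95% Wilson intervals, medians order-statistic intervals, and folds exact Poisson intervals of n with input fixed. The labels name no molecular identifiers, so these cover counting error only. The members and lists were chosen with earlier results of these data known. Scripts ran in Python 3.11.15 with pandas 2.3.3, numpy 2.4.6 and scipy 1.17.1. Sequences of the peaks were not used here.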

Additional observations from a re-analysis of the deposited data

How the results depend on the processing

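With q under 0.05, q under 1e-5, at least 10 RIP fragments, or 1 peak per gene (the one of highest −log10 p), the number of last intron peaks was 315, 114, 301 and 565. The median fold was then 4.73, 6.67, 4.52 and 3.38, the median RIP fragments 16, 28.5, 17 and 7, and the share within 5 kb of the gene's 3′ end 24.8%, 27.4%, 27.7% and 22.7%. That share was 0.774% in a window of 1 kb and 55.1% in 20 kb. The share with q under 0.05 was 80.4% with at least 10 fragments and 41.6% with 1 peak per gene, and that with q under 1e-5 was 37.9% and 15.9%. The ratio of median fold to middle intron peaks turned to 0.915 with 1 peak per gene, where the cause was not tested. Genes with a 3′ UTR peak were 45.1%, and with an exon or 3′ UTR peak of q under 0.05, 51.0%. Assignment to the intron's gene was 34.2% for transcripts with at least 4 introns and 41.1% with 1 peak per gene, and overlap with another coding gene, a result added after the data were seen, was 8.89% with q under 0.05. The other 48 values moved by less than their counting interval, or for counts by less than 1.5 times. No paired analysis was possible because each group has 1 library. The share of peaks holding GGACT was not run, since it needs a genome sequence.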

Other observations

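Chromosome 16 held 62 of the last intron peaks (6.57%, Wilson interval 5.16% to 8.34%), against 2.54% of first (2.04% to 3.17%) and 2.43% of middle intron peaks (2.14% to 2.77%). PMM2 gave 8 of the 62, and the rest lay in 31 other genes. Counted once per gene, the share was 32 of 565 genes (5.66%, 4.04% to 7.89%), against 3.05% (2.3% to 4.05%) and 3.23% (2.67% to 3.9%), so these intervals touch those of first introns and not those of middle ones. The chromosome 16 pattern was noticed in the data and was not looked for on every chromosome with a test. Shares differed on other chromosomes too. Chromosome 19 held 4.35% of last, 2.14% of first and 2.19% of middle intron peaks. Chromosome 15 went the other way, with 1.48%, 3.85% and 3.47%. Intervals were computed for chromosome 16 only.

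The lowest fold of the set, 1.52 (1.24 to 1.86), belonged to AKR1B10, an aldo-keto reductase, in intron 9 of 9. The peak had 95 RIP fragments over an input level of 39.7, so it was called at high depth and low enrichment, with q above 0.05. The deposited table assigns it to AKR1B15, a neighbouring gene of the same family, by the nearest transcript start. How reads map between these related genes was not tested, so the counts carry that uncertainty.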
